A study of Mus musculus with 16 samples.

Results

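The genes described here are 10 markers of stromal cells other than collagens: *Des*, *Vim*, *Acta2*, *Tagln*, *Rgs5*, *Pdgfra*, *Pdgfrb*, *Reln*, *Dcn* and *Lum*, of 24984 genes in the count tables. They were taken from a fixed list of names, followed in every library by tissue, treatment and replicate. The names were chosen by what the genes mark, with the levels per library and the shFos against NT fold changes of earlier analyses of these data known. Their values are therefore given as a description, and support for the choice of the list is not drawn from them. RNA-seq was performed on kidney and liver of wild-type female C57BL/6 mice that had received, at 24 months of age, an intravenous dose of AAV8 carrying a short hairpin RNA against *Fos* (shFos) or a non-targeting hairpin (NT), with tissue taken 3 months later. AAV8 is an adeno-associated virus serotype used for gene delivery to the liver and other organs, and *Fos* encodes a subunit of the AP-1 transcription factor. The study asked what *Fos* knockdown changes in aged kidney and liver. The 16 libraries form 4 groups of 4, kidney NT, kidney shFos, liver NT and liver shFos, and all animals, controls included, carried a virus. The labels give an age of 24 months. The promoter that drove the hairpin is not given in the sources used here, and the RNA came from whole tissue, so the cells that took up the vector are not identified.

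Stromal cells hold the shape of an organ and make its matrix. In the liver the main ones are hepatic stellate cells, which lie beside the sinusoids, store vitamin A and can turn into contractile myofibroblasts, and portal fibroblasts. In the kidney they are interstitial fibroblasts, pericytes around the capillaries, mesangial cells of the glomerulus and smooth muscle of the arterioles. Most of the markers belong to more than 1 of these cell types. *Des* encodes desmin, an intermediate filament of muscle, mesangial and stellate cells. *Vim* encodes vimentin, the intermediate filament of mesenchymal cells, which endothelial cells and leukocytes also contain. *Acta2* encodes smooth muscle alpha-actin and *Tagln* encodes transgelin, an actin-binding protein, both of smooth muscle and myofibroblasts. *Rgs5*, a regulator of G-protein signalling, and *Pdgfrb*, a receptor for platelet-derived growth factor, mark pericytes and related cells, while the related receptor *Pdgfra* marks fibroblasts. *Reln* encodes reelin, a secreted glycoprotein made in the liver by stellate cells. *Dcn* and *Lum* encode decorin and lumican, small leucine-rich proteoglycans that bind collagen fibrils and are products of fibroblasts.

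Of the 10 genes, 6 had an entry in the RefSeq promoter table for mm10, namely *Des*, *Rgs5*, *Vim*, *Reln*, *Pdgfra* and *Acta2*. *Tagln*, *Lum*, *Dcn* and *Pdgfrb* are named only. The 250 bases before the annotated start were searched on both strands for 4 motifs. The AP-1 motif TGANTCA was in 0 of the 6 windows and in 6.75% of 32851 windows of the same length. The related motif TGACGTCA was also in 0 of the 6, and in 1.55% of all. The E-box CANNTG, which is bound by basic helix-loop-helix factors, was in 4 of the 6 (*Acta2*, *Des*, *Pdgfra* and *Reln*) and in 66.2% of all windows. TATAAA was in that of *Vim* alone, against 12.4% of all. The windows of *Des* and *Reln* are shown because both genes had higher levels in every shFos liver than in every NT liver, with capitals marking the E-boxes, each from 5′ to 3′ on the strand of the gene. That of *Des* is chr1:75360042-75360291 on the + strand and holds E-boxes that start 220 and 36 bases before the start site. That of *Reln* is chr5:22344706-22344955 on the - strand and holds 1, which starts 71 bases before it. First exons in GENCODE M21 reach into the windows of *Acta2* and *Vim*, which are not shown.
Des: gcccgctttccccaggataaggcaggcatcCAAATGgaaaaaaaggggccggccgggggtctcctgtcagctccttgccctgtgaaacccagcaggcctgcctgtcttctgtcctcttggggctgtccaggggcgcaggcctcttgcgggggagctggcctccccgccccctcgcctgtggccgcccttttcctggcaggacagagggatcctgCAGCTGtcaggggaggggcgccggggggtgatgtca
Reln: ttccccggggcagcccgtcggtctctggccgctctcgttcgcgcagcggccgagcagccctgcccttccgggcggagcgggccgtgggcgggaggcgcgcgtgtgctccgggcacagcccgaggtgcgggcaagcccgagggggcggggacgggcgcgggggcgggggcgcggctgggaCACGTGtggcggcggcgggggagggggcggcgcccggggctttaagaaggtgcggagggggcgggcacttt
These matches are letters in a window and no binding was measured.

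Each kidney library held between 14194543 and 15534665 counted reads, and each liver library between 16652150 and 18300277. Levels are given as CPM, the usual unit of counts scaled to library size, after TMM normalization within a tissue, and a count of 0 would allow 0.156 to 0.230 CPM. Every marker was detected in all 16 libraries, the lowest count being 27 reads of *Acta2* in liver NT replicate 1, and all 10 passed the filter on low counts in both tissues. The labelled tissues could be told from their own genes: the summed level of 6 hepatocyte genes was 45314 to 189096 CPM in liver and 103 to 446 CPM in kidney, and that of 7 kidney tubule genes was 12600 to 43337 CPM in kidney and 1.096 to 5.45 CPM in liver. *Fos* itself was 4.23 to 6.71 CPM in NT kidneys and 2.30 to 4.12 CPM in shFos kidneys, which did not overlap (log2 fold change -0.73, SE 0.25, edgeR quasi-likelihood test with Benjamini-Hochberg adjusted p = 0.0947). In the liver it was 1.12 to 3.70 CPM in NT and 1.38 to 2.76 CPM in shFos, with overlap (log2 fold change -0.47, SE 0.38, adjusted p = 0.775). One library of each tissue, NT replicate 4, stood apart from the rest of its group. Between it and the other NT libraries the chi-square per degree of freedom over genes was 63.6 to 67.7 in kidney and 334 to 431 in liver, while it was 7.17 to 13.0 and 40.7 to 60.2 between the others. The labels do not say whether libraries of a group came from separate animals, so p-values measure the spread between these samples. In RNA from whole tissue, fewer cells of a type and less RNA per cell cannot be told apart.

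In the liver, 9 of the 10 markers had a higher mean level in shFos than in NT on the log2 scale, with a median log2 fold change of 0.53, against -0.01 over all 13144 genes tested. The levels of 5 of them, *Des*, *Acta2*, *Pdgfrb*, *Reln* and *Lum*, did not overlap between the groups. Across all genes, 2.79% were higher without overlap. None of the 10 passed the test across all genes, nor did any gene (0.0% called), and the smallest adjusted p of a marker was 0.702. At an unadjusted p under 0.05 the marker count was 5, all higher in shFos (*Des*, *Acta2*, *Rgs5*, *Reln* and *Lum*), against 3.6% of all genes in that direction. Leaving out 1 library moved this count from 3 (without NT replicate 1, NT replicate 2 or shFos replicate 3) to 8 (without NT replicate 3), and it was 7 with the replicate number as a block. That block joins NT and shFos livers of different mice, since each mouse received 1 vector, so its count carries no pairing of animals. Of the whole table, 1249, 1154 and 599 genes had such a p in the first 3 of these fits, in either direction. Without NT replicate 3 it was 1050 genes, with the block 610 and with all libraries 897. DESeq2 gave 0 marker calls and a smallest adjusted p of 0.0899, and called 36 of the genes in the whole table.

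**Figure D1:**
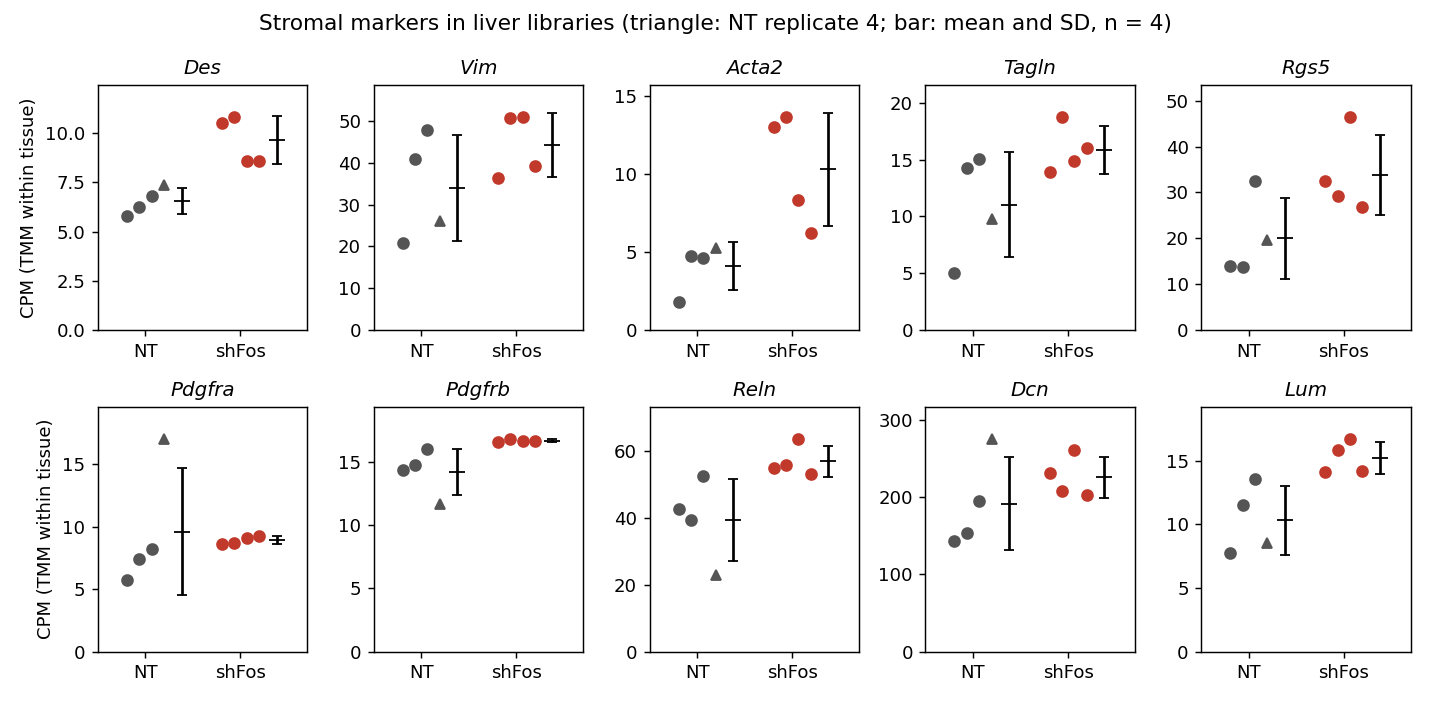
Level of each marker in the 8 liver libraries, in CPM after TMM normalization within the liver, for NT (grey) and shFos (red). Each point is 1 library, triangles are NT replicate 4, and the bars give the mean and SD of 4 libraries. All 4 red points lie above all 4 grey points for *Des*, *Acta2*, *Pdgfrb*, *Reln* and *Lum*.

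Among the cytoskeletal markers, *Acta2* had the largest fold. Its level was 1.78, 4.73, 4.63 and 5.24 CPM in NT livers 1 to 4 and 13.0, 13.7, 8.34 and 6.22 CPM in shFos livers. The shFos livers were all higher, with replicates 1 and 2 well above replicates 3 and 4, and the log2 fold change was 1.32 (SE 0.36, 2.51-fold, adjusted p = 0.702). *Des* was 5.81, 6.23, 6.82 and 7.36 CPM in NT and 10.5, 10.8, 8.57 and 8.61 CPM in shFos. The highest NT liver lay below the lowest shFos liver, and the log2 fold change was 0.56 (SE 0.15, 1.47-fold, adjusted p = 0.702). *Tagln* was 5.01, 14.2, 15.0 and 9.79 CPM in NT and 13.9, 18.8, 14.9 and 16.03 CPM in shFos. Here the groups overlapped, since NT replicates 2 and 3 were as high as some shFos livers and NT replicate 1 was low (log2 fold change 0.52, SE 0.30, adjusted p = 0.731, and 0.28 without NT replicate 1). *Vim* was 20.8, 40.9, 47.9 and 26.0 CPM in NT and 36.3, 50.7, 51.0 and 39.2 CPM in shFos, again with overlap (log2 fold change 0.39, SE 0.26, adjusted p = 0.749, and 0.20 without NT replicate 1). Reads of *Acta2* per read of *Tagln*, a ratio that does not depend on the scaling between libraries, ranged from 0.308 to 0.535 in NT livers and from 0.388 to 0.935 in shFos livers.

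Of the pericyte markers, *Rgs5* was 14.1, 13.7, 32.6 and 19.6 CPM in NT livers and 32.5, 29.3, 46.5 and 26.9 CPM in shFos livers. NT replicate 3 was as high as shFos replicate 1, so the groups overlapped (log2 fold change 0.76, SE 0.29, adjusted p = 0.706). *Pdgfrb* was 14.4, 14.8, 15.98 and 11.7 CPM in NT and lay within 16.6 to 16.8 CPM in all 4 shFos livers. The groups did not overlap, but the highest NT liver was close to the shFos values (log2 fold change 0.23, SE 0.11, adjusted p = 0.727, and 0.13 without NT replicate 4). *Pdgfra*, the fibroblast receptor, was 5.74, 7.38, 8.22 and 17.0 CPM in NT and 8.64 to 9.27 CPM in shFos. It was the 1 marker with a fold change below 0 (-0.11, SE 0.30, adjusted p = 0.946), and this rested on NT replicate 4, without which the log2 fold change was 0.31 and the groups did not overlap.

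Among the secreted products, *Reln* was 42.7, 39.5, 52.5 and 23.0 CPM in NT livers and 55.0, 56.0, 63.8 and 53.2 CPM in shFos livers. The groups did not overlap, though NT replicate 3 came within 1 CPM of shFos replicate 4 (log2 fold change 0.53, SE 0.22, adjusted p = 0.713, and 0.33 without NT replicate 4). *Lum* was 7.72, 11.5, 13.5 and 8.52 CPM in NT and 14.1, 15.8, 16.7 and 14.2 CPM in shFos. No NT liver reached the lowest shFos liver (log2 fold change 0.56, SE 0.18, 1.47-fold, adjusted p = 0.702). *Dcn* was 143, 154, 194 and 276 CPM in NT and 232, 209, 261 and 202 CPM in shFos. NT replicate 4 was the highest of the 8, and without it all shFos livers were above all NT livers (log2 fold change with all libraries 0.24, SE 0.21, adjusted p = 0.794, 0.45 without NT replicate 4 and 0.11 without NT replicate 1).

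The libraries at the ends of these ranges were few. NT replicate 1 was the lowest of the 8 livers for 7 of the 10 markers (*Des*, *Pdgfra*, *Dcn*, *Lum*, *Acta2*, *Tagln* and *Vim*), and shFos replicates 2 and 3 were the highest for 4 markers each. The summed level of the 6 hepatocyte genes was also highest in NT replicate 1, at 189096 CPM, against 45314 to 166341 CPM in the other livers. Without NT replicate 1 the median log2 fold change of the markers was 0.36 and the same 5 genes did not overlap, against 5.44% of all genes. Without NT replicate 4 the median was 0.45, and 7 of the 10 did not overlap, with *Pdgfra* and *Dcn* added, against 4.35% of all genes. In lists for other cells, the 8 genes of the mesothelial list summed to 188 to 216 CPM in NT livers and 224 to 388 CPM in shFos livers. That list shares *Krt19* with the biliary list and also holds *Krt8*. Its sum was not split by gene and is not a measure of mesothelial cells alone. The summed level of 12 endothelial genes was 338 to 414 CPM in NT livers and 385 to 446 CPM in shFos livers, with overlap. The 12 macrophage genes summed to 326 to 1763 CPM in NT (median 819) and 406 to 743 CPM in shFos (median 530), and every gene of these 3 lists was detected. The part of these cells in the marker levels was not tested.

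Other genes of the same cell types were followed through 4 lists, which share no gene with the 10 markers. Of 15 tested stellate cell genes, 12 were higher in shFos livers, with a median log2 fold change of 0.37. The 2 with the smallest p were *Sod3*, an extracellular superoxide dismutase (48.2 to 67.6 CPM in NT, 63.3 to 83.4 CPM in shFos, log2 fold change 0.37), and *Ecm1*, an extracellular matrix protein (86.9 to 153 CPM against 115 to 195 CPM, log2 fold change 0.55). Of 20 fibroblast genes 17 were higher, with a median of 0.50. *Dpt*, which encodes the matrix protein dermatopontin, was 1.85 to 5.48 CPM in NT and 8.49 to 11.7 CPM in shFos, without overlap (log2 fold change 1.42, SE 0.32, adjusted p = 0.685 by edgeR and 0.0256 by DESeq2). *Efemp1*, the matrix protein fibulin-3, was 11.5 to 19.4 CPM and 20.6 to 22.6 CPM, also without overlap (log2 fold change 0.45). Of 10 pericyte and mesangial genes 8 were higher (median 0.42), among them *Serpine2*, a protease inhibitor (3.63 to 5.94 CPM against 7.28 to 8.53 CPM, log2 fold change 0.71), and the receptor *Notch3* (0.688 to 1.67 CPM against 1.35 to 2.78 CPM, log2 fold change 0.94). Of 15 smooth muscle genes 10 were higher and 5 lower (median 0.19). Without overlap, 1 gene of this list was higher and 1 lower, against 2.79% and 1.52% of all genes. The 2 with the smallest p were *Myh11*, the smooth muscle myosin heavy chain (1.06 to 3.65 CPM against 3.71 to 7.46 CPM, log2 fold change 1.22), and *Smtn*, smoothelin (5.398 to 9.32 CPM against 8.02 to 13.0 CPM, log2 fold change 0.54). In the stellate, fibroblast and pericyte and mesangial lists, 3, 2 and 1 genes were higher without overlap and 0 were lower. No gene of these lists passed the test across all genes by edgeR, and the median over all genes was -0.01. The summed levels, which abundant genes set, did not all follow the counts of genes. The fibroblast list summed to 2022 to 2680 CPM in NT livers and 1709 to 2197 CPM in shFos livers, and the stellate list to 270 to 347 CPM and 308 to 557 CPM. The pericyte and mesangial list summed to 197 to 335 CPM and 212 to 278 CPM, and the smooth muscle list to 512 to 596 CPM and 544 to 600 CPM. The sums were not split by gene, and genes such as *Fn1* of the fibroblast list need not come from stromal cells alone. The stellate list also summed to 850 to 1167 CPM in shFos kidneys, so it does not measure hepatic stellate cells alone. Between the tissues, 12 of its 15 tested genes were higher in liver and 3 in kidney.

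In the kidney the shFos and NT levels overlapped for 9 of the 10 markers. Of the 10 markers 8 were higher in shFos and 2 lower (7 and 3 with upper-quartile scaling, 6 and 4 with counted reads alone), with a median log2 fold change of 0.15, against 0.00 over all 14892 genes tested. Without NT replicate 4 the median was 0.08, with 7 higher and 3 lower. The log2 fold changes below 0 were those of *Pdgfrb* (-0.17), *Des* (-0.10) and *Vim* (-0.049). None of the markers passed the test across all genes, nor did any gene (0.0% called). *Rgs5* was the only marker with an unadjusted p under 0.05, a level that 32.0% of all genes passed. *Lum* was the only marker whose groups did not overlap, where 9.16% of all genes were higher without overlap. DESeq2 called 2663 of the genes tested in the kidney and 0 of the markers.

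**Figure D2:**
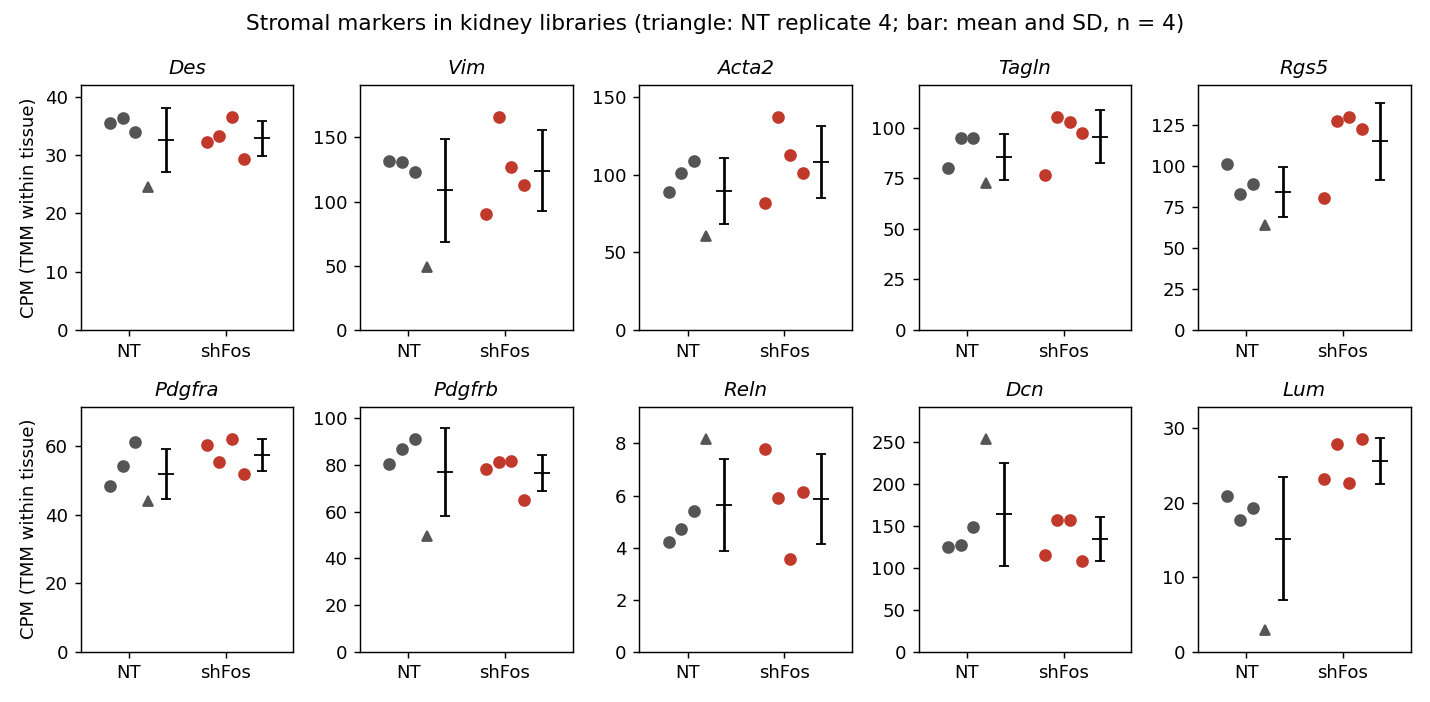
Level of each marker in the 8 kidney libraries, in CPM after TMM normalization within the kidney, for NT (grey) and shFos (red). Each point is 1 library, triangles are NT replicate 4, and the bars give the mean and SD of 4 libraries. The triangle is the lowest point of the panel for 8 markers and the highest for *Dcn* and *Reln*.

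*Rgs5* was 101, 82.6, 88.9 and 63.9 CPM in NT kidneys 1 to 4 and 80.3, 127, 130 and 122 CPM in shFos kidneys. The shFos kidneys 2 to 4 were above all NT kidneys, and shFos replicate 1 was below 3 of the 4 NT kidneys (log2 fold change 0.45, SE 0.18, 1.37-fold, adjusted p = 0.126). Without shFos replicate 1 the adjusted p was 0.0218, the 1 case in which a marker was called, and in that fit 4173 genes of the whole table were called. Without NT replicate 4 the whole table held 3 calls, none of them a marker.

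*Lum* was 20.8, 17.6, 19.3 and 2.96 CPM in NT kidneys and 23.1, 27.9, 22.6 and 28.6 CPM in shFos kidneys. The groups did not overlap either with or without NT replicate 4, whose level was far below the other NT kidneys (log2 fold change 0.75, SE 0.45, adjusted p = 0.279, and 0.41 with adjusted p = 0.0900 without that library). *Dcn* was 125, 127, 149 and 254 CPM in NT and 115, 157, 157 and 108 CPM in shFos. Its groups overlapped, and NT replicate 4 was the highest of all (log2 fold change -0.28, SE 0.24, adjusted p = 0.446, and 0.01 without that library). *Reln* was 4.21, 4.72, 5.41 and 8.19 CPM in NT and 7.78, 5.92, 3.58 and 6.14 CPM in shFos, which overlapped throughout (log2 fold change 0.06, SE 0.29, adjusted p = 0.908).

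*Acta2* was 88.6, 101, 109 and 60.3 CPM in NT kidneys and 81.9, 137, 113 and 101 CPM in shFos kidneys. *Tagln* was 79.9, 95.2, 94.8 and 72.4 CPM in NT and 76.6, 105, 103 and 97.6 CPM in shFos. Both overlapped, with shFos replicate 1 among the lower kidneys and shFos replicate 2 the highest (log2 fold change 0.27, SE 0.20, and 0.16, SE 0.13, adjusted p = 0.389 and 0.421). *Des* was 35.4, 36.4, 34.0 and 24.5 CPM in NT and 32.3, 33.3, 36.5 and 29.3 CPM in shFos, with a log2 fold change of 0.01 (SE 0.13). *Vim* was 132, 131, 123 and 49.2 CPM in NT and 90.4, 166, 127 and 113 CPM in shFos (log2 fold change 0.19, SE 0.30). NT replicate 4 was far below the other kidneys for *Vim*, and shFos replicate 1 was the lowest of the rest. *Pdgfra* ranged from 44.2 to 61.1 CPM in NT and from 52.0 to 62.2 CPM in shFos, and *Pdgfrb* from 49.6 to 91.3 CPM and from 65.1 to 81.8 CPM, with log2 fold changes of 0.15 (SE 0.11) and -0.01 (SE 0.18).

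The 4 other stromal lists were also near the median of all genes in the kidney. Higher in shFos were 8 of 12 genes of the stellate list, named for cells of the liver (median log2 fold change 0.06), and 16 of 24 fibroblast genes (0.13). So were 9 of 15 pericyte and mesangial genes (0.08) and 15 of 19 smooth muscle genes (0.12). No gene of the 4 lists was called by edgeR. The genes with the smallest p had larger differences. *Ogn*, the proteoglycan osteoglycin, was 22.9 to 66.5 CPM in NT and 69.2 to 125 CPM in shFos (log2 fold change 1.03, SE 0.30, adjusted p = 0.0719), while *Scara5*, a ferritin receptor of fibroblasts, was lower, with 6.32 to 9.60 CPM in NT and 5.07 to 6.85 CPM in shFos (log2 fold change -0.49). *Angpt1*, the pericyte ligand of the endothelial receptor *Tek*, was 12.6 to 17.4 CPM and 16.1 to 37.9 CPM (log2 fold change 0.93, adjusted p = 0.0670), and *Itga8*, an integrin subunit of mesangial cells, was 8.89 to 20.3 CPM and 18.1 to 32.7 CPM (log2 fold change 0.87). In smooth muscle, *Lmod1*, an actin filament nucleator, was 4.19 to 5.52 CPM in NT and 6.45 to 9.31 CPM in shFos without overlap (log2 fold change 0.73, adjusted p = 0.0650), and *Myh11* was 24.0 to 31.5 CPM and 33.3 to 44.5 CPM, also without overlap (log2 fold change 0.49, adjusted p = 0.0650). Of the 19 genes of that list, 4 were higher without overlap, against 9.16% of all genes. In the stellate, fibroblast and pericyte and mesangial lists the number was 0, 1 and 1. *Nes* and *Ngfr* of the stellate list had log2 fold changes of 0.50 and 1.097 with overlapping groups. *Ogn*, *Angpt1*, *Itga8*, *Lmod1* and *Myh11* passed the threshold by DESeq2 and by edgeR without shFos replicate 1. These fits called 2663 and 4173 genes of the whole table, and the 5 genes had been picked by their small p. In the kidney, the summed level of 12 endothelial genes was 824 to 1074 CPM in NT and 955 to 1206 CPM in shFos, that of 6 podocyte genes, all detected, 360 to 534 CPM and 462 to 905 CPM, and that of 11 lymphocyte genes 24.0 to 320 CPM and 215 to 336 CPM. Their part in the marker levels was not tested.

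**Figure D3:**
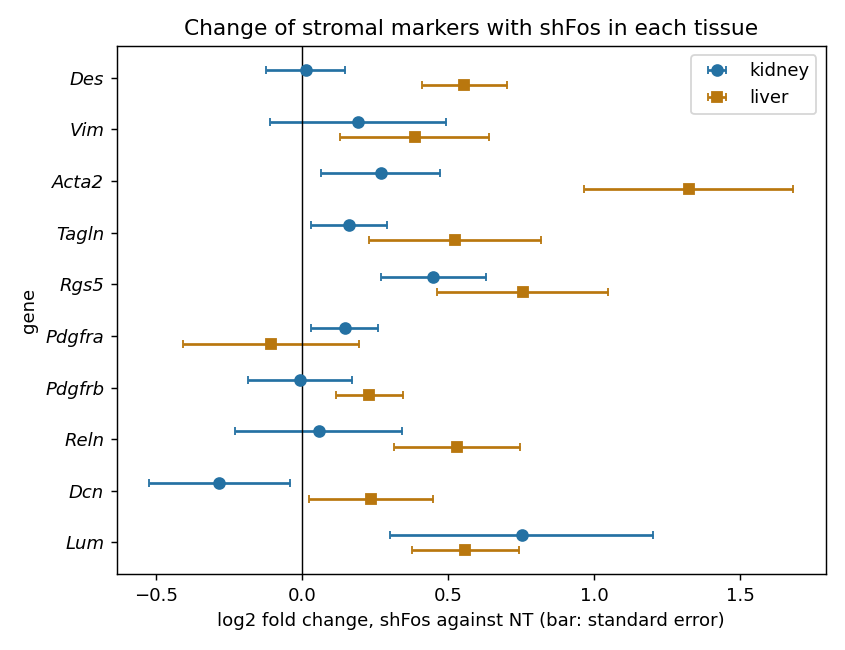
Log2 fold change of each marker with shFos against NT in kidney (circles) and liver (squares), from the edgeR fit of each tissue, with bars for the standard error. *Acta2* in the liver lies farthest to the right, at 1.32, and 9 of the 10 liver points and 8 of the 10 kidney points lie above 0.

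The difference between the tissues in the response to shFos was tested in 1 fit of all 16 libraries, and no marker passed (0.0% of 15421 genes called). The log2 difference, liver minus kidney, was above 0 for 8 of the 10. It was 1.06 for *Acta2* (SE 0.41, adjusted p = 0.234) and 0.56 for *Des* (SE 0.19, adjusted p = 0.201), the 2 markers with an unadjusted p under 0.05, which 16.1% of all genes had. For *Lum*, whose level was higher in shFos without overlap in both tissues, the difference was -0.18 (SE 0.52).

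NT replicate 4 of the kidney was outside the range of the other 7 kidneys for all 10 markers, a position that 51.0% of all tested genes had. It was the lowest for 8 markers. Against the mean of the other 3 NT kidneys, *Lum* was 6.49-fold lower, *Vim* 2.61-fold, *Pdgfrb* 1.74-fold and *Acta2* 1.65-fold, while *Des*, *Rgs5*, *Pdgfra* and *Tagln* were 1.24-fold to 1.44-fold lower. *Dcn* was 1.90-fold higher and *Reln* 1.71-fold higher. NT replicate 4 of the liver was outside the other 7 livers for 4 of the 10, where 52.5% of all genes were. *Pdgfra* was 2.39-fold and *Dcn* 1.69-fold higher there, *Pdgfrb* was 1.29-fold and *Reln* 1.96-fold lower. Fold differences of NT replicate 4 from its group had the same direction in both tissues for 6 of the 10 markers and the opposite direction for the rest. The share over all genes was not counted, so no shared trait is read from this. Named after its values were seen, *Saa1*, an acute-phase protein gene, was 7866 CPM in this liver and at most 394 CPM in the other NT livers. *Fkbp5*, a glucocorticoid-responsive gene named in the same way, was 146 CPM in this liver and 43.3 to 53.2 CPM in the other NT livers, and 218 CPM in the kidney library and 25.5 to 32.2 CPM in the other NT kidneys. The 6 hepatocyte genes summed to 45314 CPM in this liver and to 118860 to 189096 CPM in the others, and the 7 tubule genes to 12600 CPM in this kidney and 21601 to 23482 CPM in the others. In this kidney the 11 lymphocyte genes summed to 24.0 CPM and the 12 macrophage genes to 287 CPM, each the lowest of the NT kidneys. Their part in the marker levels of these libraries was not tested.

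*Dcn* and *Lum* lie next to each other on the + strand of chromosome 10 of mm10, *Dcn* from 97479609 to 97518143 and *Lum* from 97565128 to 97572703, with 46984 bases between them. Their levels parted most clearly in that kidney. It held 85.7 reads of *Dcn* per read of *Lum*, while the other NT kidneys held 5.97 to 7.72 and the shFos kidneys 3.80 to 6.94. In the livers the ratio was 13.4 to 32.4 in NT and 13.2 to 16.4 in shFos, with the highest value again in NT replicate 4. Leaving out that replicate, all livers were above all kidneys.

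**Figure D4:**
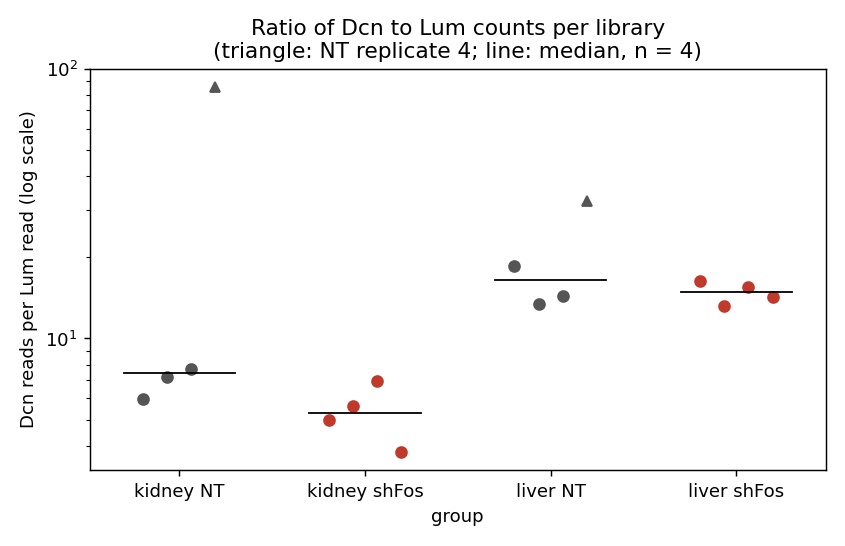
Reads of *Dcn* per read of *Lum* in each of the 16 libraries on a log scale, for NT (grey) and shFos (red) in kidney and liver, with the median of 4 libraries as a line and NT replicate 4 as a triangle. The triangle of kidney NT stands at 85.7, above all other libraries, and that of liver NT at 32.4.

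Kidney and liver differed in most of the markers. For this comparison all 16 libraries were normalized together and both treatments weighed equally. Of the 10 markers 9 passed the edgeR test, against 74.1% of all 15421 genes, of which 39.3% were higher in kidney and 34.8% in liver. Higher in kidney were *Acta2* (7.53-fold, 43.7 to 98.2 CPM in kidney and 2.49 to 19.4 CPM in liver on the joint scale), *Tagln* (3.41-fold), *Pdgfra* (2.94-fold), *Pdgfrb* (2.497-fold), *Des* (2.05-fold), *Rgs5* (1.89-fold) and *Vim* (1.496-fold). The adjusted p was 3.9e-09 for *Acta2* and 0.0207 for *Vim*, with the others between, and the levels of *Rgs5*, *Vim* and *Lum* overlapped between the tissues while those of the other 7 did not, against 43.1% of all genes. Higher in liver were *Reln* (16.4-fold, 2.47 to 5.93 CPM in kidney and 32.5 to 89.3 CPM in liver, adjusted p = 2.2e-11) and *Dcn* (2.80-fold, 75.6 to 184 CPM and 200 to 391 CPM, adjusted p = 1.3e-06). *Lum* did not pass (log2 fold change, kidney against liver, -0.35, SE 0.26, adjusted p = 0.232).

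These folds depend on the scaling. The TMM factors of the tissues lay far apart, and the effective library size was 1.32 to 1.48 times the counted reads in kidney and 0.626 to 0.783 times in liver. With counted reads alone the median log2 fold change of all genes moved from 0.05 to 1.04, and the median with upper-quartile scaling was 0.18. With counted reads alone *Lum* turned to 0.64, higher in kidney with an adjusted p of 0.0376 but below the median of all genes, while the other 9 markers kept their direction and passed. In that fit 13746 genes of the whole table passed, against 11429 with TMM. The factor between the TMM and counted-read scales was close to the same for all markers, as the plot of the 4 scalings shows.

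**Figure D5:**
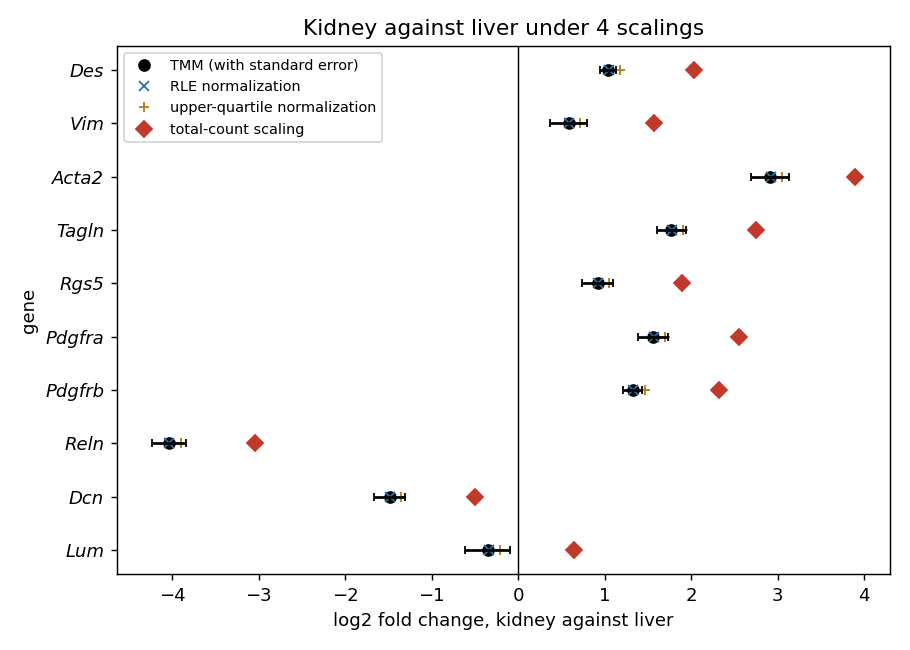
Log2 fold change of each marker, kidney against liver, with TMM (black, bar for the standard error), RLE, upper-quartile and total-count scaling. Total-count scaling moves every marker to the right by about the same amount and takes *Lum* from -0.35 to 0.64, the 1 change of direction.

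Per kilobase of the longest transcript, the order of the markers differed between the tissues. In kidney the mean level was highest for *Tagln* (56.8 ± 7.85 CPM per kb, SD, n = 8 libraries of both treatments), followed by *Acta2* (48.6 ± 11.2), *Vim* (39.8 ± 11.7), *Dcn* (31.8 ± 9.87), *Rgs5* (24.3 ± 6.00), *Pdgfrb* (14.2 ± 2.46), *Des* (10.8 ± 1.35), *Lum* (8.32 ± 3.27), *Pdgfra* (8.003 ± 0.941) and *Reln* (0.491 ± 0.139), all in CPM per kb. Neighbours in this order had overlapping ranges except *Pdgfra* and *Reln*. In liver it was highest for *Dcn* (44.5 ± 9.98), followed by *Vim* (13.4 ± 3.81), *Tagln* (8.44 ± 2.65), *Rgs5* (6.57 ± 2.68), *Lum* (5.22 ± 1.34), *Reln* (4.12 ± 1.09), *Acta2* (3.54 ± 2.07), *Pdgfrb* (2.85 ± 0.326), *Des* (2.67 ± 0.623) and *Pdgfra* (1.36 ± 0.489), in the same unit. There the ranges overlapped between neighbours except *Dcn* and *Vim*. The place of *Acta2* differed between the liver groups: its mean was 2.01 CPM per kb in NT, below *Pdgfrb* (2.62) and *Des* (2.16), and 5.07 CPM per kb in shFos, above *Reln* (4.87). Smooth muscle and mesenchymal filament genes stood at the head in kidney, and decorin alone stood above the rest in liver. Counting ignored strand. *Tagln* shares 62.4% of its exonic bases with the antisense gene *Gm48529*, which is not analysed here, so reads of these 2 genes cannot be told apart. *Tagln* also shares 5.43% with *Pcsk7*, and *Des* shares 5.86% with *Gm15179*. Both of those are in the tables, where reads over more than 1 counted gene fall under ambiguous reads and not under either gene.

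The gene most like each marker over the 16 libraries was sought among 15411 others by the root mean square difference of centred log2 CPM. It was *Ntng2* for *Des* (0.18), *Card10* for *Pdgfra* (0.16), *Mxra7* for *Pdgfrb* (0.16), *Cdc42ep3* for *Tagln* (0.17), *Arl4a* for *Dcn* (0.23), *Lhfp* for *Vim* (0.24), *Sema3d* for *Rgs5* (0.24), *Agt* for *Reln* (0.29), *Col14a1* for *Lum* (0.35) and *Igsf3* for *Acta2* (0.41), each value being a difference on the log2 scale. These profiles hold the difference between tissues, which the libraries of a tissue share. Among the markers themselves the closest pair was *Des* and *Pdgfrb* (0.24), while the nearest marker to *Dcn* was *Lum* at 1.08 and that to *Reln* was *Dcn* at 1.36. Of the 15411 others, 21 were nearer to *Des* and 51 nearer to *Pdgfrb* than the 2 were to each other. For *Dcn* 8829 were nearer than its nearest marker, and for *Reln* 1185.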

How the data were processed

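RNA-seq of kidney and liver (16 libraries, 4 per group) was analysed from the deposited count tables. The authors trimmed reads with Trimmomatic 0.39, mapped them to mm10 with HISAT2 2.2.1 and counted them per gene with HTSeq 0.12.4 without regard to strand, so the deposited values are raw counts. Groups were taken from the sample labels. From these counts, edgeR 4.0.16 under R 4.3.3 fitted each tissue on its own (genes kept by filterByExpr, TMM scaling, robust dispersion, quasi-likelihood test, Benjamini-Hochberg adjustment over all genes tested, call at an adjusted p under 0.05). One fit of all 16 libraries gave the comparison of tissues and the difference between responses. The floor is 3 counts and covers counting error only, since no molecular identifiers mark PCR copies. Positions came from GENCODE M21, which held 98.2% of the symbols, and promoters from RefSeq. No pair of libraries of a group was similar enough to be 1 library listed again (smallest chi-square per degree of freedom 7.17).

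The members and lists were chosen with earlier results of these data known. Named are all members, the 2 genes of each of 4 stromal lists with the smallest p per tissue, and the gene nearest to each member over the 16 libraries (log2 CPM, prior count 2). *Saa1* and *Fkbp5* were named after their values were seen. Alternatives were DESeq2 1.42.0, RLE, upper-quartile and total-count scaling, other count filters, a newer dispersion fit, a fit of all libraries, the replicate number as a block, a GC correction (lowess, span 0.3) and each library left out in turn. Total-count scaling and leaving out both NT replicates 4 were added after the data were seen.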

Additional observations from a re-analysis of the deposited data

Results flagged for a closer look

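In groups of 4 libraries, the gap between the most extreme library and its nearest neighbour was compared with the range of the group by Dixon's 95% criterion. Over 96 groups of marker levels and summed lists, 7 were flagged where about 4.8 would be by chance, and 4 of the 7 were NT replicate 4 of the kidney. The groups are not independent, since each library enters many of them, so these counts are not a test. Among the 40 groups of single markers 2 were flagged, as many as would be by chance at the same rate.

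*Rgs5* was 80.3 CPM in kidney shFos replicate 1, while the other shFos kidneys held 122 to 130 CPM. *Vim* was 49.2 CPM in kidney NT replicate 4 and 123 to 132 CPM in the other NT kidneys. In that same library the 24 fibroblast genes summed to 1050 CPM (2405 to 2591 CPM in the others), the 16 genes of the pericyte and mesangial list to 355 CPM (498 to 505 CPM) and the 12 endothelial genes to 824 CPM (1034 to 1074 CPM). The pericyte and mesangial list holds *Anpep*, *Gata3* and *Pdgfb*, which other kidney cells also make. Its sum was not split by gene and does not measure those 2 cell types alone. The 7 tubule genes summed to 12600 CPM in that library and 21601 to 23482 CPM in the other NT kidneys. The fibroblast genes summed to 2549 CPM in kidney shFos replicate 2, above 2278 to 2311 CPM in the others of its group. The 6 skeletal muscle genes summed to 11.4 CPM in liver shFos replicate 1 and to 1.20 to 1.72 CPM in the other shFos livers. This is 1 of the 2 shFos livers with the highest *Acta2*, and without it the same 5 markers did not overlap between the groups, against 3.58% of all genes.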

How the results depend on the processing

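No marker was called for shFos against NT in either tissue, or for the difference between them, under DESeq2, the other scalings, filters and dispersion fit, the replicate block and the GC correction. Between the tissues 9 were called under all of these except total-count scaling, where *Lum* made 10. Total-count scaling called 13746 genes of the whole table between the tissues, and TMM 11429. Of the fold changes of single markers under the alternatives, 854 kept their direction and side of the threshold, 25 changed direction and 1 (*Rgs5* in the kidney, without shFos replicate 1) passed the threshold with its direction kept. *Lum* between the tissues, 1 of the 25, also passed it with total counts. The numbers of genes called in the whole table moved most. In the kidney DESeq2 called 2663 and the fit of all 16 libraries 987, where edgeR called 0, and leaving out 1 library gave 0 to 4173 genes and 0 to 1 of the markers, the highest without shFos replicate 1 (3 genes without NT replicate 4). In the liver DESeq2 called 36. For the difference between tissues DESeq2 called 282, and leaving out 1 library gave 0 to 1230, again highest without kidney shFos replicate 1. The cause was not tested.

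Most fold changes that changed direction were near 0. In the kidney, *Des* was -0.044 with upper-quartile scaling, -0.083 with total counts and -0.10 to 0.061 leaving out 1 library. *Pdgfrb* was 0.0071 without a filter, 0.11 with the GC correction and -0.17 to 0.084 leaving out 1 library. *Reln* was -0.029 with total counts and -0.15 to 0.30 leaving out 1 library. Leaving out 1 library gave -0.40 to 0.012 for *Dcn* and -0.049 to 0.30 for *Vim* in the kidney, where the value without NT replicate 4 had the other sign for both. It gave -0.29 to 0.31 for *Pdgfra* in the liver, highest without NT replicate 4. In the difference between tissues it gave -0.42 to 0.19 for *Pdgfra* and -0.41 to 0.12 for *Lum*, and without both NT replicates 4 these were 0.23 and 0.045. Between the tissues, *Lum* was 0.64 with total counts.

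Groups share replicate numbers. Within a tissue, NT and shFos libraries of the same number came from different mice, since each mouse received 1 vector. Between kidney and liver, the labels do not say that a number marks 1 animal. Between same-numbered NT and shFos libraries the deviations from the group means correlated by -0.17 to 0.12 in kidney and -0.26 to 0.04 in liver, and no library correlated best with its own number. Between kidney and liver the correlation was 0.14 to 0.35 in NT and 0.04 to 0.15 in shFos, with 3 of 4 best with their own number in each. With the replicate number as a block, edgeR called 0 genes for shFos in kidney and 0 in liver, as without it (3809 and 610 had an unadjusted p under 0.05 with the block). *Pdgfrb* in the kidney was 0.022 and *Pdgfra* in the liver 0.020 with the block, and the block changed no call of a marker.

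Depth limits the low markers most, such as *Acta2* in NT livers (27 to 99 reads) and *Lum* in kidney NT replicate 4 (46 reads).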
